A study of Mus musculus with 18 samples.

Results

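The genes described here are the Eph receptors and ephrins, the semaphorins with their plexin and neuropilin receptors, the netrins with the Unc5 receptors, and the Slits with the Robo receptors, measured in 6 mouse tumor cell lines. Members were taken by gene symbol alone, which gave 71 of the 35275 genes in the count table: 33 receptors, 35 ligands and 3 noncoding transcripts named for *Plxna4*. Their expression was not part of that rule, though the choice was made with earlier results of these data known.

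The lines came from malignant peripheral nerve sheath tumors (MPNSTs), sarcomas of the nerve, raised in wild-type 129 Sv/Jae mice by injecting the sciatic nerve with an adenovirus that carried CMV-driven Cas9 and guide RNAs. All lines share the loss of *Nf1*, and the genotype is given in the labels as Nf1-/-;p53-/- for 3 lines (*Nf1*/*p53* dKO) and Nf1-/-;Cdkn2a-/- for 3 lines (*Nf1*/*Cdkn2a* dKO). *Cdkn2a* encodes p16 and p19, and p19 stabilises p53. Each line stands for 1 tumor and was grown, untreated, in DMEM with serum in 3 cultures, so the line was the unit of comparison (n = 3 per genotype). The age and sex of the mice are not given in the labels. There is no nerve or other *Nf1* wild-type sample among the libraries, so every difference below is between the double-knockout genotypes.

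Axon guidance proteins were found through the steering of growing nerve fibres and are also used by Schwann cells, blood vessels and tumors. Eph receptors are tyrosine kinases that bind ephrins held on the neighbouring cell. Semaphorins bind plexins, which act on small GTPases, and most secreted class 3 semaphorins need a neuropilin as co-receptor. Netrin binding to Unc5 receptors and Slit binding to Robo receptors mostly repel the growing tip, and Unc5 receptors can trigger cell death when netrin is absent.

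The 18 libraries held 19560535 to 28312207 counts (median 23149777), and the 6 line sums 65206479 to 73065228. The 7 mesenchymal markers fixed for the label "mesenchymal" were each at or above 1 CPM (read count scaled to a common library size) in every line. The Schwann cell factor *Sox10* was below 1 CPM in every line, and 6 Schwann markers summed to 3.42 to 68.4 CPM in *Nf1*/*p53* dKO and 1.22 to 2.83 CPM in *Nf1*/*Cdkn2a* dKO. *Trp53* RNA was at 94.1, 67.5 and 58.7 CPM in *Nf1*/*p53* dKO and 247, 246 and 185 CPM in *Nf1*/*Cdkn2a* dKO, whereas *Cdkn2a* RNA overlapped between genotypes (42.9 to 363 CPM and 169 to 392 CPM). Gene-level counts do not show whether a guide-made lesion removed the protein. A list of 6 skeletal muscle markers moved with genotype: its summed level was 53.7 to 417 CPM in *Nf1*/*p53* dKO and 0.203 to 0.802 CPM in *Nf1*/*Cdkn2a* dKO, in which *Myod1* had 0 counts. The part of either list in the differences below was not tested, and in such bulk samples fewer cells of a type and less RNA per cell cannot be told apart.

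Most guidance receptors and ligands were detected. Of the 71 members, 59 had enough counts to be tested (26 of 33 receptors and 33 of 35 ligands). The 12 others were *Epha6*, *Epha8*, *Epha10*, *Ephb1*, *Plxnb3*, *Robo4*, *Unc5d*, *Ntn5*, *Sema5b* and *Plxna4os1*, *Plxna4os2* and *Plxna4os3*, none of which reached 1 CPM in a line. Among these, *Ephb1* was at 0.905 CPM and *Sema5b* at 0.778 CPM in *Nf1*/*p53* dKO line 2, and *Unc5d* was at 0.567 CPM in *Nf1*/*p53* dKO line 1. Each had no more than 0.0721 CPM in any other line.

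To compare levels between genes, CPM was divided by the exon length of the gene in kilobases. On that scale the highest receptors, as means of the 6 lines, were *Epha2* (48.6 CPM per kb), *Plxnb2* (45.9), *Nrp2* (27.0), *Unc5b* (22.3), *Plxna1* (15.7) and *Ephb4* (13.7). The highest ligands were *Sema7a* (68.5 CPM per kb), *Efnb2* (23.4), *Sema3a* (19.2), *Slit3* (14.2) and *Sema4b* (14.0). The gene ID of *Ntn3* in the count table had no match in the annotation used, so no length was assigned and *Ntn3* is left out of this scale. A single receptor dominated its group in several families: *Epha2* made up 77.3% to 96.9% of the summed EphA level of a line, and *Plxnb2* 97.7% to 99.6% of the plexin-B level.

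**Figure D1:**
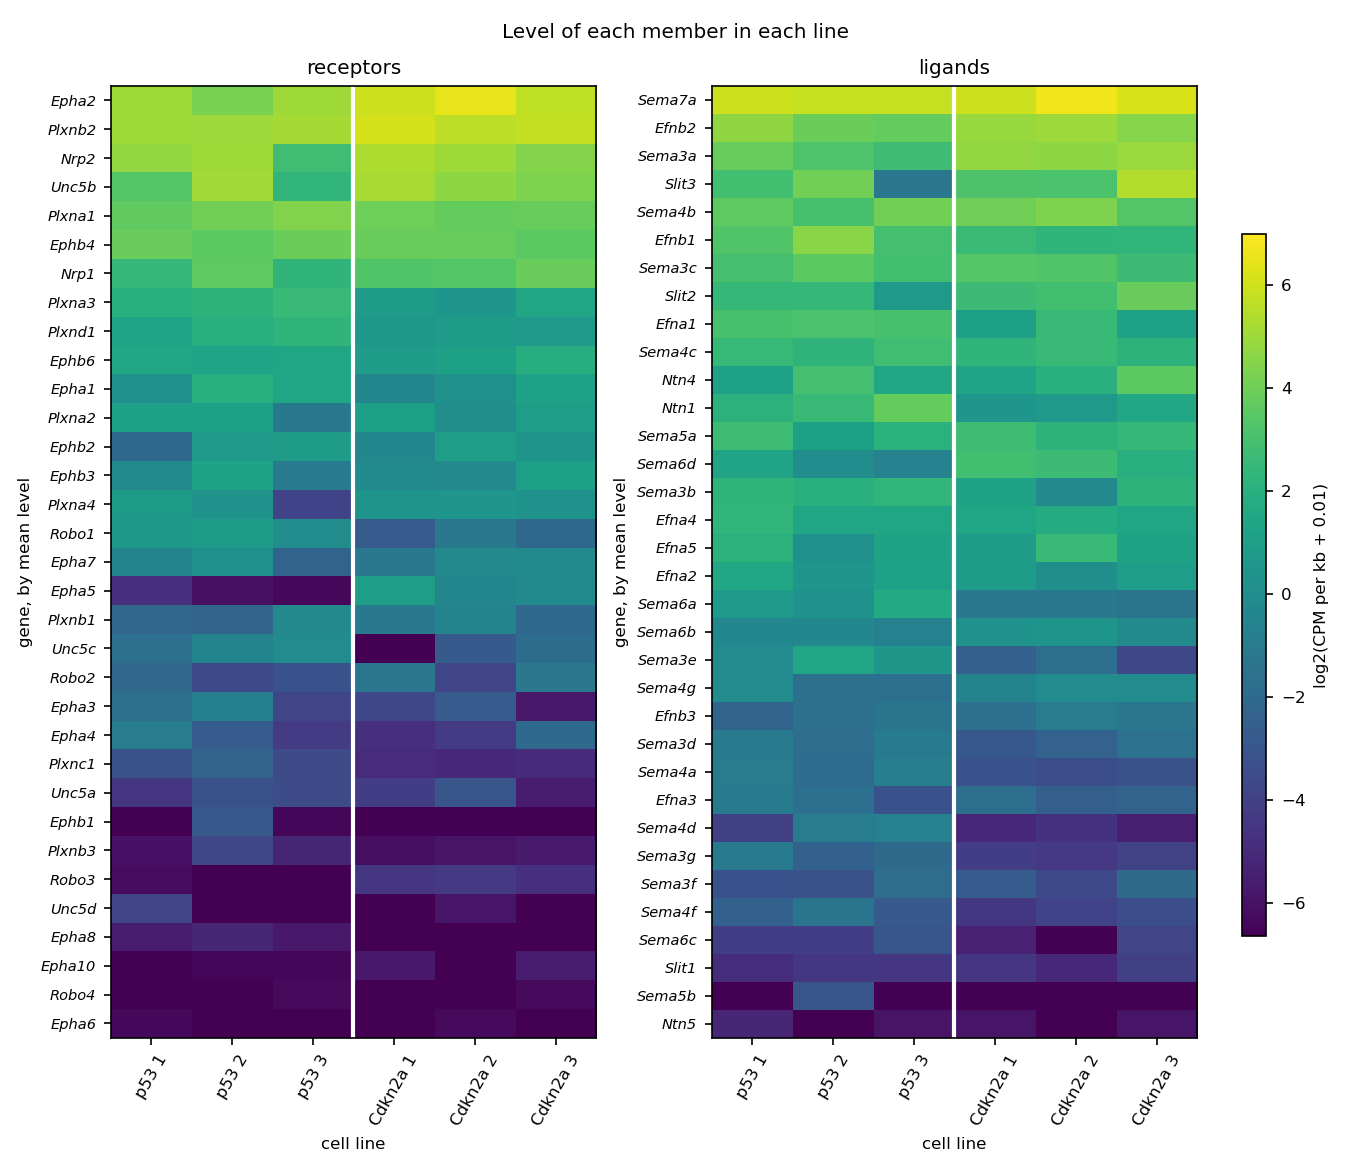
Level of each receptor (left) and ligand (right) in each of the 6 lines, as log2(CPM per kb + 0.01), for the 67 coding members with an exon length, sorted by mean level; the white bar divides *Nf1*/*p53* dKO from *Nf1*/*Cdkn2a* dKO lines. *Epha5* is dark in the *Nf1*/*p53* dKO lines and lighter in the *Nf1*/*Cdkn2a* dKO lines, and *Slit3*, *Plxna4* and *Nrp2* are lowest in *Nf1*/*p53* dKO line 3.

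To ask which members differ with the tumor suppressor lost beside *Nf1*, line sums were compared with edgeR over all 15207 tested genes. Only 2 of the 59 members passed at an adjusted p below 0.05: *Epha5* was higher and *Sema6a* lower in *Nf1*/*Cdkn2a* dKO. This compares with 1.8% of all tested genes called (0.638% higher and 1.16% lower). Many more members stood apart without passing. At an adjusted p below 0.1 there were 16 members (27.1%), 6 higher and 10 lower, beside 8.09% of all genes. At an unadjusted p below 0.05 there were 20 (33.9%), beside 22.4% of all genes. For 24 members the lines of one genotype all lay to one side of the other, 9 higher and 15 lower, where 14.8% of all genes were higher and 16.6% lower without overlap. All 9 cultures of one genotype lay above all 9 of the other for 15 members, beside 13.5% of all genes.

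The median log2 fold change of the members was -0.01 (all genes, -0.02), and placing *Robo3* at its bound left it there, whereas the median absolute log2 fold change was 0.777 for members and 0.381 for all genes. Of 26 receptors, 1 was called and 9 did not overlap (34.6%), 4 higher and 5 lower. Of 33 ligands, 1 was called and 15 did not overlap (45.5%), 5 higher and 10 lower. Of all tested genes, 1.8% were called and 31.4% did not overlap, a share near that of the receptors. The median log2 fold change was 0.04 for receptors and -0.19 for ligands.

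**Figure D2:**
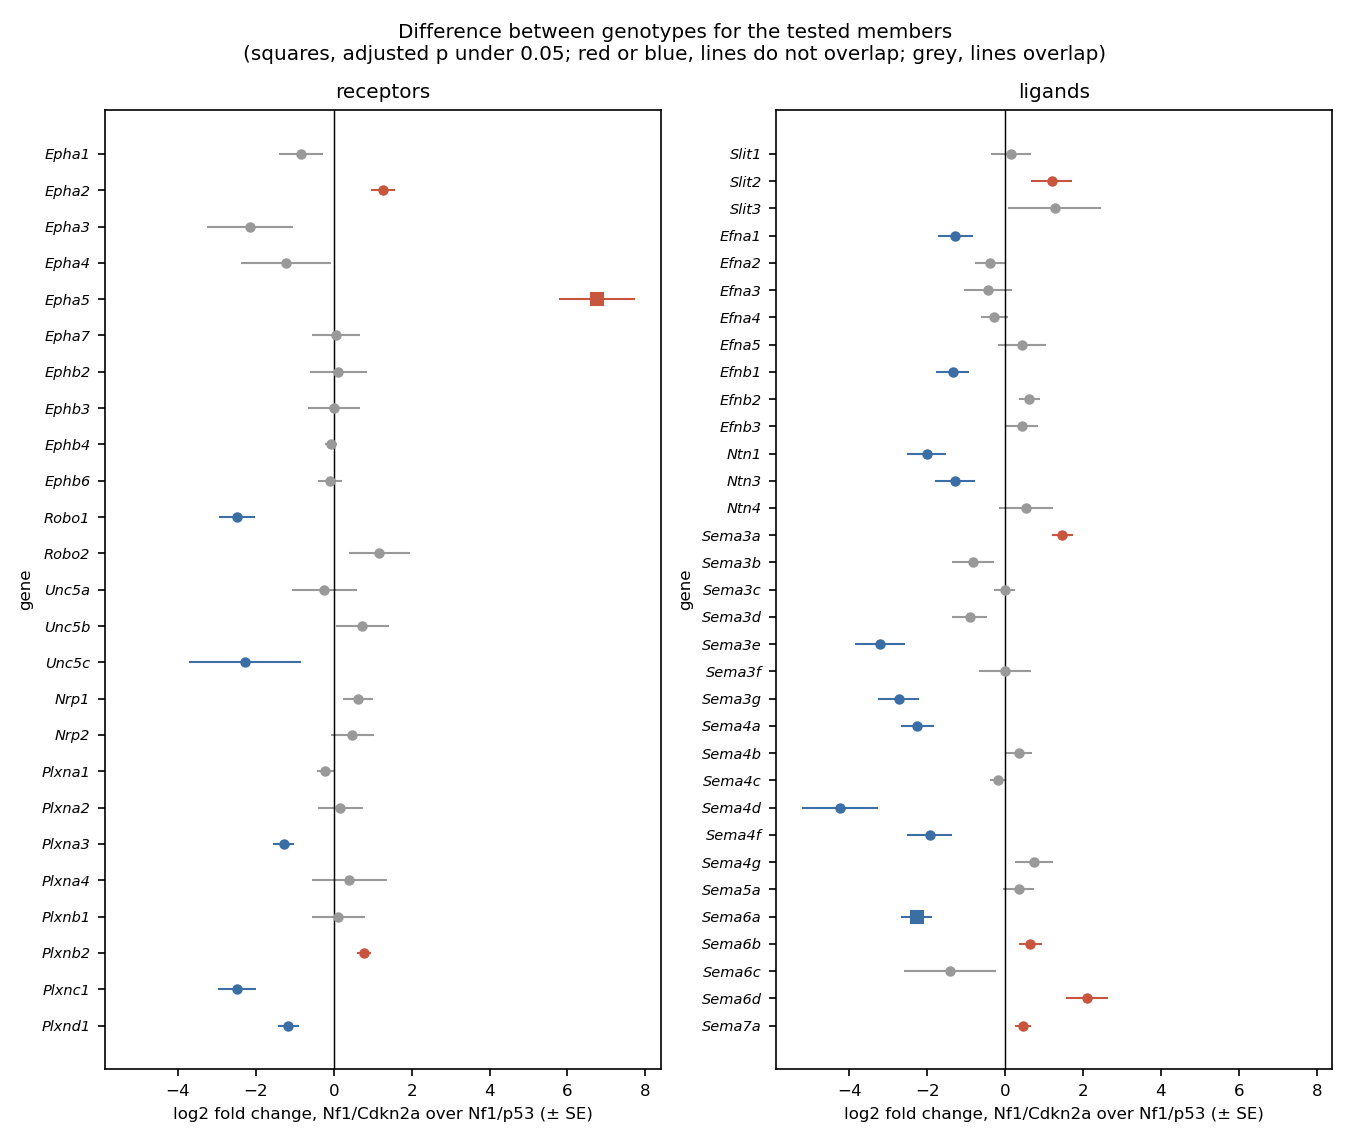
Log2 fold change of *Nf1*/*Cdkn2a* dKO over *Nf1*/*p53* dKO (± SE, 3 lines per genotype) for 58 of the 59 tested members, receptors left and ligands right; squares passed at an adjusted p below 0.05, red and blue members had lines that did not overlap, and grey members overlapped. *Robo3*, at the count floor in *Nf1*/*p53* dKO lines, is not drawn; *Epha5* at 6.76 and *Sema6a* at -2.27 are the squares.

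Calls depended on how the replication was counted, on the test and on the scaling. Counting the 18 cultures as samples, which treats cultures of 1 tumor as independent, called 30 of 54 members (46.5% of all genes called), and DESeq2 on the 6 lines called 18 of 63 members, 6 higher and 12 lower (12% of all genes). With raw library totals in place of TMM scaling, which moved the median of all genes by -0.13 on the log2 scale, 7 members were called, *Epha5* higher and *Plxna3*, *Plxnc1*, *Robo1*, *Sema3g*, *Sema4a* and *Sema6a* lower (1 and 6), beside 2.78% of all genes.

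*Epha5*, an ephrin-A receptor best known in the developing brain, showed the widest gap. The gene lies on chromosome 5 of GRCm38 (chr5:84054761-84417382, minus strand). Its level was 0.425, 0.0849 and 0.0415 CPM in *Nf1*/*p53* dKO lines 1, 2 and 3, and 33.0, 12.7 and 15.5 CPM in *Nf1*/*Cdkn2a* dKO lines 1, 2 and 3. It was thus near absent in all of the former (33, 6 and 3 counts) and present in all of the latter (2055, 879 and 988 counts). The means were 111-fold apart (log2 fold change 6.76, SE 0.98, adjusted p = 0.0388), a size that rests on few *Nf1*/*p53* dKO counts. Leaving out *Nf1*/*p53* dKO line 1 gave a log2 fold change of 8.29. The gene passed the count filter through its *Nf1*/*Cdkn2a* dKO lines. With at least 10 counts asked of every line it could not be tested. The call held on leaving out *Nf1*/*p53* dKO line 1 (adjusted p = 0.0387), and without any of the other lines the adjusted p was 0.0640 to 0.124. Without any of those other lines, 0% to 0.681% of all genes were called.

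Promoter sequence is shown for *Epha5*, as the member with the widest gap, and for *Sema3e* and *Plxnd1*, a ligand and its receptor that both stood lower in *Nf1*/*Cdkn2a* dKO. Each window holds 250 bases before and 50 after the RefSeq start (GRCm38.p6), covers the start of the gene in the annotation used, and is printed 5′ to 3′ on the gene's strand with CG dinucleotides in capitals.
*Epha5* (chr5:84417333-84417632, minus strand): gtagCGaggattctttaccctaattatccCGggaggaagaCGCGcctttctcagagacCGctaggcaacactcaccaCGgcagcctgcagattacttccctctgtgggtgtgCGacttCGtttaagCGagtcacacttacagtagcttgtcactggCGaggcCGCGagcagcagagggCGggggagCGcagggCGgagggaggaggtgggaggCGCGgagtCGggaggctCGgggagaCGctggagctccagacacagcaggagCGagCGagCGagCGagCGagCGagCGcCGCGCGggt
*Sema3e* (chr5:14025026-14025325, plus strand): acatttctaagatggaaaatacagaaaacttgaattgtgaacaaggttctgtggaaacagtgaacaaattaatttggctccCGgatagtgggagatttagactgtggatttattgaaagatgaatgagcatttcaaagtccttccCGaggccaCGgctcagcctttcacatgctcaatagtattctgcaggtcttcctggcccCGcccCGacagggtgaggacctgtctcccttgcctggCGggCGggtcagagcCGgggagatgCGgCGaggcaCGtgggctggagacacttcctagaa
*Plxnd1* (chr6:115994956-115995255, minus strand): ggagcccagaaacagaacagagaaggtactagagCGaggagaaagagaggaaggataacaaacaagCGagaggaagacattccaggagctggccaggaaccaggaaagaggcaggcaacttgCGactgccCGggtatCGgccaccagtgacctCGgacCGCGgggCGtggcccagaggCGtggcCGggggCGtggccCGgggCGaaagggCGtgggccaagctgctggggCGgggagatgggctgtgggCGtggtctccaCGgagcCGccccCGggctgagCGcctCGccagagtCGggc
The window held 30 CG dinucleotides for *Epha5*, a number that 11.7% of the 32851 promoter windows in the table reach. It held 11 for *Sema3e* (41.4% reach it) and 23 for *Plxnd1* (21.5%). The 75 member windows counted came from 59 of the 71 members, tested or not, and *Sema6a*, a called member, had none among them. The median over these member windows was 19, with a range of 2 to 56, beside a median of 7 over all windows. The windows over all genes were not sorted by gene type, whereas the members with windows are coding genes. A gene could hold several windows, and this difference was not tested. The p53 half-site, searched by its consensus of purines, pyrimidines and the central CWWG, which reads the same on both strands, was present in 5 member windows (*Efna4*, *Ntn3*, *Plxna3*, *Robo1* and *Sema4d*), or 6.67%, beside 8.36% of all windows. Such a match is a description of these letters only.

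*Epha2*, the receptor with the highest mean level per kb, binds ephrin-A ligands and is often high in solid tumors. It is also listed here as p53-linked, with *Efnb1*, *Sema3b*, *Unc5a* and *Unc5b*, a link that was not tested. It was at 156, 89.7 and 155 CPM in *Nf1*/*p53* dKO and 292, 430 and 240 CPM in *Nf1*/*Cdkn2a* dKO. The ranges did not overlap, nor did those of the cultures, but the difference did not pass (log2 fold change 1.26, SE 0.31, adjusted p = 0.0850). Its ligand *Efna1* stood the other way at 14.8, 16.1 and 14.9 CPM against 3.82, 11.1 and 4.02 CPM (log2 fold change -1.27, SE 0.45, adjusted p = 0.170). Line by line, the *Nf1*/*Cdkn2a* dKO line with the highest *Efna1* was also the one with the highest *Epha2*.

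The other tested EphA receptors were low and their lines overlapped. *Epha3* ranged from 0.0782 to 5.12 CPM and *Epha4* from 0.209 to 4.33 CPM, and *Epha7* from 1.99 to 11.2 CPM. *Epha1*, at 2.95 to 14.7 CPM, shares exon sequence with the far more abundant *Zyx* on the opposite strand, and its reads are uncertain because the strand setting of the counting is not given. The remaining ephrin-A ligands, *Efna2* to *Efna5*, also overlapped, with log2 fold changes between -0.43 and 0.42.

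EphB receptors had the smallest differences of the families, with a median absolute log2 fold change of 0.0758. *Ephb4*, a receptor for ephrin-B2 that separates arteries from veins, was at 69.0, 54.1 and 71.5 CPM in *Nf1*/*p53* dKO and 65.4, 65.6 and 55.1 CPM in *Nf1*/*Cdkn2a* dKO. Its log2 fold change was -0.06 with a 95% interval of -0.45 to 0.32 (adjusted p = 0.839). *Ephb2*, *Ephb3* and the kinase-dead *Ephb6* had log2 fold changes between -0.09 and 0.12, but *Ephb2* ranged from 2.87 CPM in *Nf1*/*p53* dKO line 1 to 24.6 CPM in *Nf1*/*Cdkn2a* dKO line 2.

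The ephrin-B ligands split. *Efnb2*, the partner of *Ephb4*, was at 179, 104 and 94.9 CPM against 201, 222 and 160 CPM, with *Nf1*/*p53* dKO line 1 inside the range of the other genotype (adjusted p = 0.247). *Efnb1*, an X-linked ephrin-B that some sources list as p53-responsive, was at 33.8, 81.5 and 27.5 CPM in *Nf1*/*p53* dKO and 21.6, 16.9 and 17.5 CPM in *Nf1*/*Cdkn2a* dKO (log2 fold change -1.35, SE 0.42, adjusted p = 0.133). Without *Nf1*/*p53* dKO line 2, the highest, its log2 fold change was -0.70. *Efnb3* stayed at or below 1.66 CPM.

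Among the plexins, *Plxnb2*, a receptor for class 4 semaphorins and for angiogenin, was at 258, 248 and 277 CPM in *Nf1*/*p53* dKO and 538, 385 and 419 CPM in *Nf1*/*Cdkn2a* dKO (log2 fold change 0.78, SE 0.17, adjusted p = 0.0684). *Plxnd1*, the receptor through which *Sema3e* acts on vessels, was at 18.3, 28.8 and 35.05 CPM against 11.2, 13.4 and 11.8 CPM (log2 fold change -1.17, SE 0.27, adjusted p = 0.0780). *Plxna3*, which pairs with neuropilins, was at 31.9, 35.6 and 45.8 CPM against 14.9, 11.1 and 20.4 CPM (log2 fold change -1.29, SE 0.27, adjusted p = 0.0650). In all 3 genes the cultures of the genotypes were fully apart, yet none passed at 0.05. *Plxnc1*, the receptor of *Sema7a*, was low, at 0.678 to 1.60 CPM against 0.159 to 0.193 CPM (log2 fold change -2.49, adjusted p = 0.0586).

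The most abundant plexin-A and the neuropilins overlapped. *Plxna1* was at 113, 152 and 194 CPM in *Nf1*/*p53* dKO and 143, 123 and 129 CPM in *Nf1*/*Cdkn2a* dKO (adjusted p = 0.588). *Nrp2*, a co-receptor for class 3 semaphorins and VEGF-C, was at 329, 388 and 83.1 CPM against 465, 394 and 258 CPM (adjusted p = 0.636). *Nrp1* was at 47.9 to 120 CPM against 97.0 to 143 CPM. *Nf1*/*p53* dKO line 3 was low in several of these receptors: *Plxna4* was at 0.803 CPM there and 17.8 to 24.0 CPM in the other lines, and *Plxna2* at 7.69 CPM beside 18.2 to 35.8 CPM. *Plxnb1* overlapped at 2.04 to 8.03 CPM.

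Class 3 semaphorins are secreted, and their members went both ways. *Sema3a*, the classic repellent that acts through *Nrp1* and plexin-A, was at 199, 130 and 94.2 CPM in *Nf1*/*p53* dKO and 385, 362 and 426 CPM in *Nf1*/*Cdkn2a* dKO (log2 fold change 1.47, SE 0.28, adjusted p = 0.0540). *Sema3e* was at 8.83, 24.7 and 13.6 CPM against 1.68, 2.77 and 0.626 CPM, with means 9.28-fold apart (log2 fold change -3.21, SE 0.65, adjusted p = 0.0611). *Sema3e* and *Plxnd1*, ligand and receptor, thus both stood lower in every *Nf1*/*Cdkn2a* dKO line than in any *Nf1*/*p53* dKO line. *Sema3g* showed the same order at low level, with 0.806 to 2.26 CPM against 0.173 to 0.250 CPM (log2 fold change -2.73, adjusted p = 0.0546). *Sema3b*, a semaphorin known as a p53 target, was at 23.1, 19.0 and 24.4 CPM against 11.6, 4.10 and 21.7 CPM and overlapped (adjusted p = 0.418). *Sema3c* did not differ beyond its spread, at 51.7 to 84.2 CPM against 45.9 to 74.7 CPM (log2 fold change -0.01, 95% interval -0.65 to 0.62), and *Sema3d* and *Sema3f* overlapped too.

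**Figure D3:**
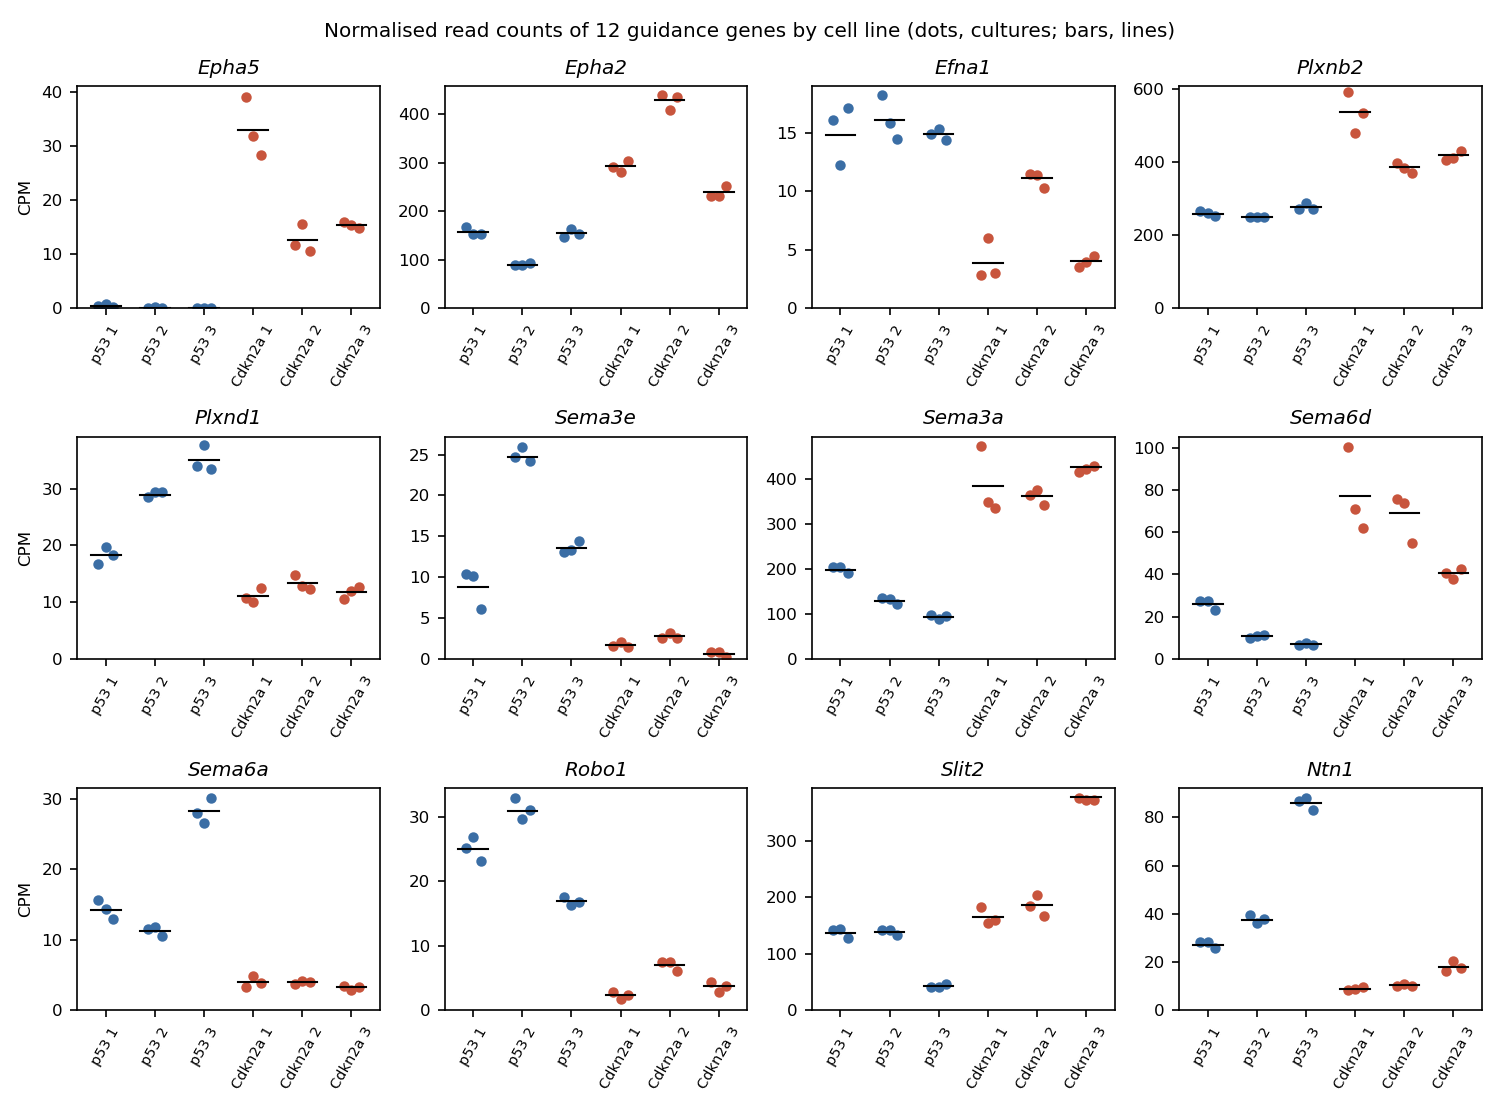
CPM of 12 of the 15 members whose cultures were fully apart, in each culture (dots) and line (bars), with *Nf1*/*p53* dKO lines in blue and *Nf1*/*Cdkn2a* dKO lines in red; each panel has its own linear axis from 0. In every panel the cultures of the genotypes are apart, with *Epha5* at most 0.665 CPM in a *Nf1*/*p53* dKO culture and *Slit2* and *Ntn1* spread widely between lines of one genotype.

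Of the membrane-bound semaphorins of class 6, *Sema6a* and *Sema6d* went opposite ways. Both bind plexin-A receptors. *Sema6a* was at 14.2, 11.2 and 28.2 CPM in *Nf1*/*p53* dKO and 3.95, 3.94 and 3.21 CPM in *Nf1*/*Cdkn2a* dKO, and fell with means 4.84-fold apart (log2 fold change -2.27, SE 0.40, adjusted p = 0.0496). This call sat at the threshold, and leaving out any 1 line gave an adjusted p of 0.0578 to 0.151. In those fits 0% to 1.11% of all genes were called. *Sema6d* was at 26.0, 10.7 and 6.93 CPM against 77.3, 69.2 and 40.6 CPM (log2 fold change 2.10, SE 0.53, adjusted p = 0.0904). *Sema6b* did not overlap either, at 2.49 to 3.20 CPM against 3.60 to 5.32 CPM (adjusted p = 0.261), and *Sema6c* stayed at or below 0.678 CPM.

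In class 4, the low members carried the differences. *Sema4d*, the ligand of plexin-B1 known from immune cells and bone, was at 0.387, 4.03 and 4.58 CPM in *Nf1*/*p53* dKO and 0.144, 0.231 and 0.0938 CPM in *Nf1*/*Cdkn2a* dKO (log2 fold change -4.24, SE 0.98, adjusted p = 0.0785). *Sema4a* was at 2.80, 1.40 and 3.02 CPM against 0.529, 0.462 and 0.516 CPM (log2 fold change -2.26, SE 0.42, adjusted p = 0.0529). *Sema4f* had the same order at up to 2.01 CPM (log2 fold change -1.94, adjusted p = 0.121). The abundant *Sema4b*, by contrast, overlapped at 68.3, 45.4 and 94.9 CPM against 93.2, 115 and 58.1 CPM (adjusted p = 0.578), as did *Sema4c* and *Sema4g*.

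*Sema7a*, a lipid-anchored semaphorin that can signal through integrins, was the most abundant ligand. It was at 203, 184 and 184 CPM in *Nf1*/*p53* dKO and 205, 344 and 236 CPM in *Nf1*/*Cdkn2a* dKO (log2 fold change 0.46, SE 0.21, adjusted p = 0.268), a gap that closed under raw library totals and upper-quartile scaling. *Sema5a*, a transmembrane semaphorin with thrombospondin repeats, overlapped at 125, 40.6 and 78.6 CPM against 128, 83.6 and 101 CPM (adjusted p = 0.634).

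*Robo1*, a Slit receptor, was at 25.0, 31.0 and 16.9 CPM in *Nf1*/*p53* dKO and 2.31, 7.05 and 3.66 CPM in *Nf1*/*Cdkn2a* dKO (log2 fold change -2.48, SE 0.47, adjusted p = 0.0538). *Robo2* overlapped, at 1.04 to 7.01 CPM over the 6 lines. *Robo3*, picked after its values were seen, lies outside the rule for named genes, as do *Plxnc1*, *Sema3g*, *Sema4f* and *Sema6b* above. *Robo3* had 2 counts over the 9 *Nf1*/*p53* dKO cultures and 44 over the *Nf1*/*Cdkn2a* dKO cultures. That is at least 1.80-fold higher against a floor of 3 counts per library (edgeR adjusted p = 0.0696). The summed Robo level was 1.13 to 1.95 CPM per kb against 0.526 to 0.662 CPM per kb.

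The Slit ligands summed to 2.12 to 57.2 CPM per kb, above the Robo receptors in every line. *Slit2* was at 137, 138 and 42.6 CPM in *Nf1*/*p53* dKO and 166, 186 and 378 CPM in *Nf1*/*Cdkn2a* dKO, without overlap (log2 fold change 1.20, SE 0.52, adjusted p = 0.239). *Slit3* was at 44.8, 104 and 2.49 CPM against 55.3, 52.7 and 257 CPM and overlapped (adjusted p = 0.568). Both Slits were lowest in *Nf1*/*p53* dKO line 3 and highest in *Nf1*/*Cdkn2a* dKO line 3. Without the latter line the log2 fold change of *Slit2* was 0.74. *Slit1* stayed at or below 0.297 CPM.

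*Ntn1*, the secreted netrin, was at 27.2, 37.5 and 86.1 CPM in *Nf1*/*p53* dKO and 8.92, 10.3 and 18.1 CPM in *Nf1*/*Cdkn2a* dKO (log2 fold change -2.01, SE 0.50, adjusted p = 0.0892). *Ntn3* was at 4.05, 2.96 and 2.86 CPM against 0.674, 1.11 and 2.25 CPM (adjusted p = 0.200), and it shares exon sequence with *Tbc1d24*, so its reads are uncertain. *Ntn4*, a basement membrane netrin, overlapped at 8.25, 28.2 and 10.4 CPM against 9.40, 15.4 and 43.4 CPM (adjusted p = 0.680).

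The Unc5 receptors, of which *Unc5a* and *Unc5b* are known p53 targets, did not pass. *Unc5b* was at 63.8, 218 and 31.8 CPM in *Nf1*/*p53* dKO and 234, 158 and 131 CPM in *Nf1*/*Cdkn2a* dKO (adjusted p = 0.556), with *Nf1*/*p53* dKO line 2 among the highest lines. *Unc5c* was at 5.77, 13.4 and 18.3 CPM against 0, 2.60 and 5.15 CPM, without overlap and with the largest SE of the tested members (log2 fold change -2.27, SE 1.44, adjusted p = 0.395). *Unc5a* stayed at or below 0.490 CPM in every line, at 0.142, 0.396 and 0.332 CPM against 0.193, 0.490 and 0.0469 CPM (adjusted p = 0.886). Of the netrin receptors outside these families, *Dcc* had too few counts to be tested, and *Neo1* (neogenin) was at 127 to 141 CPM in *Nf1*/*p53* dKO and 139 to 168 CPM in *Nf1*/*Cdkn2a* dKO (log2 fold change 0.19, adjusted p = 0.453).

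Summed per length, the receptors came to 157, 187 and 145 CPM per kb in *Nf1*/*p53* dKO and 263, 253 and 209 CPM per kb in *Nf1*/*Cdkn2a* dKO. The ranges did not overlap under any of the 4 scalings tried. *Epha2* and *Plxnb2* held most of the gap: the summed EphA level was 24.8 to 36.1 against 55.6 to 94.9 CPM per kb and plexin-B 32.5 to 36.7 against 50.6 to 70.1 CPM per kb. The ligands came to 198, 193 and 168 against 205, 258 and 250 CPM per kb, which overlapped under raw library totals (178 to 210 against 196 to 249) and upper-quartile scaling (171 to 202 against 201 to 257). No test was made of these sums.

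**Figure D4:**
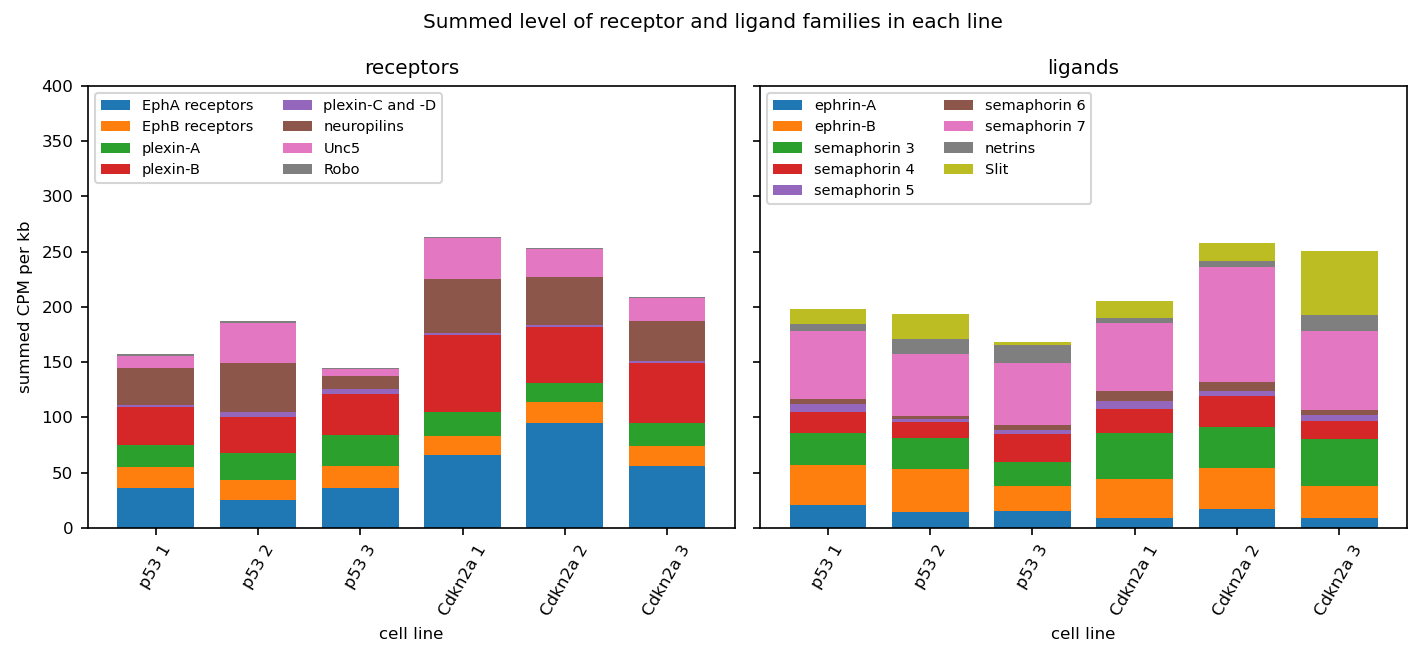
Summed CPM per kb of receptor families (left) and ligand families (right), stacked for each of the 6 lines on an axis from 0. Receptor stacks reach 145 to 187 in the *Nf1*/*p53* dKO lines and 209 to 263 in the *Nf1*/*Cdkn2a* dKO lines, with the EphA and plexin-B layers thicker in the latter, and *Sema7a* is the thickest ligand layer in every line.

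The lines of a genotype were compared with the cultures inside them. The median share of the variance among cultures of a genotype that lay between lines was 94.6% for the members in *Nf1*/*p53* dKO and 84.3% in *Nf1*/*Cdkn2a* dKO, against 84.7% and 61.2% for all tested genes. *Nf1*/*p53* dKO line 3 was the lowest of the 6 lines for 16 members and the highest for 14, and held those places for 25.5% and 25.9% of all genes. The difference from other genes was not tested.

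Other genes of the same pathways were taken from a list of 80 partners and effectors, of which 70 were tested. All 5 that passed fell in *Nf1*/*Cdkn2a* dKO, and 38 did not overlap (20 higher, 18 lower), where 14.8% of all genes were higher and 16.6% lower without overlap. *Mical1*, the oxidase that takes apart actin filaments downstream of plexins, was at 13.3, 18.4 and 17.2 CPM against 3.32, 3.29 and 3.74 CPM (log2 fold change -2.24, SE 0.24, adjusted p = 0.0210). *Ablim1*, an actin-binding protein linked to netrin signalling, was at 27.0, 15.3 and 48.5 CPM against 2.12, 2.44 and 4.88 CPM (log2 fold change -3.27, SE 0.55, adjusted p = 0.0465). *Lrrc4c*, a netrin-G ligand, was at 2.54, 7.77 and 1.94 CPM against 0.0642, 0.0433 and 0.156 CPM (adjusted p = 0.0413). *Tiam1*, a Rac exchange factor that binds ephrin and Eph proteins, was at 8.03, 23.7 and 10.4 CPM against 0, 0 and 0.109 CPM (adjusted p = 0.0403). *Rtn4rl2*, a receptor of the Nogo family, had 88 counts against 1, at least 2.85-fold lower against 3 counts per library (adjusted p = 0.0493). The list's median log2 fold change was 0.17, and 1.8% of all genes passed. The muscle markers stood lower in the same lines.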

How the data were processed

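RNA from 3 cultures of each of 6 primary mouse MPNST cell lines was sequenced. For the 18 libraries the authors deposited 1 table of unnormalised counts by gene. The submitters' processing notes name CASAVA, STAR 2.5, DESeq2 1.14.1 and the GRCm38 (mm10) build. The strand setting of the counting is not given in the sources used here, so genes that overlap on opposite strands are uncertain. Because the 3 cultures of a line come from 1 tumor, their counts were added up to 1 sample per line. Genes were filtered with filterByExpr (minimum count 10, minimum total 15), scaled by TMM, and compared with the quasi-likelihood test of edgeR 4.0.16 in R 4.3.3 (2-sided, positive values higher in *Nf1*/*Cdkn2a* dKO), with Benjamini-Hochberg adjustment over all 15207 tested genes. A gene was called at an adjusted p below 0.05. CPM was computed with TMM library sizes, and lengths were merged exons of GENCODE M21. The 95% intervals use the t quantile of the fit. The test was run on simulated data first.

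Alternatives were DESeq2 1.42.0, limma 3.58.1 with voom, edgeR on the 18 cultures, other scalings and filters, replicate blocks and leaving out each line. Raw library totals were added after the data were seen. The members and lists were chosen with earlier results of these data known. Named genes were those called, those of at least 1 CPM without overlap and with an absolute log2 fold change of at least 1, the highest member per length of each family, any member whose highest line was at least 5 CPM and 4 times the next (there was none), and 5 p53-linked members. Whether line numbers pair the genotypes was checked by the correlation of deviations from group means, which was -0.12, -0.13 and -0.08, so lines were left unpaired. Nothing in the labels says that the 3 cultures are more than repeat platings, and the spread between them exceeded counting noise (chi-square per degree of freedom 3.57 to 29.2). 1 listed Schwann marker is not reported here.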

Additional observations from a re-analysis of the deposited data

How the results depend on the processing

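Called members, with the share of all genes called in parentheses, were 2 of 59 with DESeq2 size factors (1.85%) and with upper-quartile scaling (2.1%), 5 of 70 with no filter on low counts (1.72%) and 4 of 51 with at least 10 counts in every line (1.73%), where *Epha5* could not be tested. They were 7 of 59 with raw library totals (2.78%), 18 of 63 with DESeq2 on the 6 lines (12%), 20 of 54 with limma-voom and the line as a random effect (16.6%), and 30 of 54 with edgeR on the 18 cultures (46.5%). Leaving out 1 line gave 0 to 4 called members (19 to 22 at an unadjusted p under 0.05). There were 4 without *Nf1*/*p53* dKO line 1, where 1.11% of all genes were called. There were 0 without any other line, where 0% to 0.681% of all genes were called. Adding the line number as a replicate block called 0 members and 0 genes in all by edgeR (21 members at an unadjusted p under 0.05), and the culture number as a block in the 18 cultures called 25 of 54 (43.3%). For the other pathway genes these counts were 2 with at least 10 counts in every line, 18 with DESeq2, 20 with limma-voom, 42 with edgeR on the cultures, 0 with the line block, 41 with the culture block, and 0 to 2 without 1 line. The median log2 fold change of members was -0.15 with raw library totals and -0.19 to 0.021 without 1 line. Among named genes, *Ephb4* (-0.17 to 0.020), *Ntn4* (-0.33 to 1.30) and *Unc5a* (-1.26 to 0.25) changed sign when 1 line was left out, and none of these passed under any setting. With 3 lines per genotype an exact permutation test of 1 gene cannot go below p = 0.1.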
